A study of Mus musculus with 686 samples.

Results

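mmu-miR-103-3p and mmu-miR-107-3p are 2 of the 1964 miRNAs in the count table, and they were chosen by name, with earlier results of these data known. A miRNA guides a silencing complex to messenger RNAs that pair with its seed, the bases just after its 5′ end, and lowers the protein made from them. This pair is best known for its link to insulin: in liver and fat of mice it lowers insulin sensitivity, in part by acting on caveolin-1, a membrane protein that keeps the insulin receptor at the cell surface. Its genes lie inside genes for pantothenate kinases, the enzymes that start coenzyme A synthesis, which ties the pair by position to lipid and acetyl-CoA metabolism.

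Small RNA of 13 tissues was sequenced in 686 libraries from 83 mice, all female BALB/cAnNTac, aged 3 or 8 months and fed the same kind of food bars. The arms were spaceflight (FL), a habitat ground control (HGC) that matched the double-density housing, temperature, humidity and carbon dioxide of the flight cages, and a vivarium ground control (VGC) kept at standard density. Mice of the live animal return (LAR) spent 39.5 days on the ISS and were dissected 2 to 4 days after splashdown, with their controls treated alike (348 libraries). Mice of the terminal group (TERM) were killed 22 to 24 days after launch, and their carcasses were frozen whole and thawed before dissection, except for the spleen, which was taken fresh (338 libraries). In FL, LAR and TERM thus differ in time in flight, return and freezing at once, and these cannot be told apart. The HGC and VGC mice did not fly, and their LAR and TERM libraries differ in collection time, handling and freezing, which cannot be told apart either. Groups of 1 tissue, arm and return held 2 to 10 libraries, and 9 of the 78 groups held fewer than 6. Adipose tissue was sampled as gonadal (GAT), mesenteric (MAT), subcutaneous (SCAT) and brown fat (BAT).

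The mature sequences are shown because a single base near the end separates the pair, and because every count below rests on telling them apart. Capitals mark the seed, bases 2 to 8 counted from the 5′ end, and the sequences are those of RefSeq on GRCm38.p6.
mmu-miR-103-3p: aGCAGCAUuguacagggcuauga
mmu-miR-107-3p: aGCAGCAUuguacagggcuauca
The only difference was G22C, given as the base in miR-103-3p, its position and the base in miR-107-3p, and the first 21 of 23 bases were identical. Among the 1679 mature mouse miRNAs of the table, no other miRNA had this seed. A read that ends before base 22 therefore names neither member. Of the deposited miR-103-3p values, 48.0% were not whole numbers, against 0% of the miR-107-3p values, so the fractions show no reads divided between the members. The partner strands from the 5′ arms of the hairpins are shown in the same way, since they tell the 3 source genes apart.
mmu-miR-103-1-5p: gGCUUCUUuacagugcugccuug
mmu-miR-103-2-5p: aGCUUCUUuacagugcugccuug
mmu-miR-107-5p: aGCUUCUUuacaguguugccuug
Mir103-1 lies at chr11:35782396-35782481 on the plus strand inside Pank3, Mir103-2 at chr2:131288052-131288137 on the plus strand inside Pank2, and Mir107 at chr19:34820687-34820773 on the minus strand inside Pank1. Each hairpin ran in the same direction as its host, and 0 exons of the host transcripts overlapped it, so that all 3 are intronic. Mir103-1 and Mir103-2 give the same mature miR-103-3p, and the values below are their sum.

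Sequencing depth was 0.181 to 30.5 M miRNA counts per library (median 3.88 M), and both members were far above the detection limit: the lowest count of miR-103-3p in any library was 454 and that of miR-107-3p was 76. Not all libraries matched their label. In a comparison of tissue-enriched miRNAs, 166 of the 686 libraries were nearest to another tissue than the one they are labelled with, and 11 of 44 library pools held more than 1 in 3 such libraries (168 libraries). Among the adipose tissues and liver these were 46 of 57 libraries in MAT, 20 of 60 in BAT, 15 of 58 in SCAT, 7 of 60 in GAT and 7 of 58 in liver. Of the other tissues, diaphragm had 19 of 59, lung 12 of 58, and brain 0 of 25. The liver miRNA miR-122-5p had a median of 338317 counts per 1000000 miRNA counts (CPM) in liver but ranged from 8.59 to 501653, and it reached 350290 in GAT and 390812 in MAT. The 3 muscle miRNAs on the marker list summed to a median of 101263 CPM in BAT and 102885 in SCAT, against 6409 in GAT. The values given first hold all libraries. Values without these pools (the mismatched pools) or libraries (the mismatched libraries) follow beside several results.

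Both miRNAs were present in every tissue, and their order across tissues differed. On the CPM scale, miR-103-3p was highest in white fat, with a median of 5381 CPM in GAT (lowest library 1545, highest 11014, n = 60). MAT followed at 4367 CPM (1583 to 11718, n = 57) and SCAT at 3947 CPM (623 to 7545, n = 58). The lowest medians were those of heart, 987 CPM (484 to 4373, n = 50), and diaphragm, 725 CPM (306 to 7561, n = 59). The tissues between were, in falling order, spleen (3747), kidney (3382), BAT (2863), brain (2720), thymus (2562), lung (2255), liver (1983) and pancreas (1961).

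miR-107-3p was instead highest in liver, with a median of 1858 CPM (271 to 5222, n = 58). Kidney followed at 1526 CPM (154 to 2980, n = 57) and BAT at 1234 CPM (369 to 2495, n = 60). Spleen (802), brain (751), GAT (723), thymus (678), MAT (611), SCAT (545), lung (457), heart (354), pancreas (353) and diaphragm (214) followed in falling order. By rank among the miRNAs detected in a tissue, miR-103-3p stood between 29 (MAT) and 62 (pancreas), and miR-107-3p between 49 (liver) and 124 (pancreas).

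**Figure D1:**
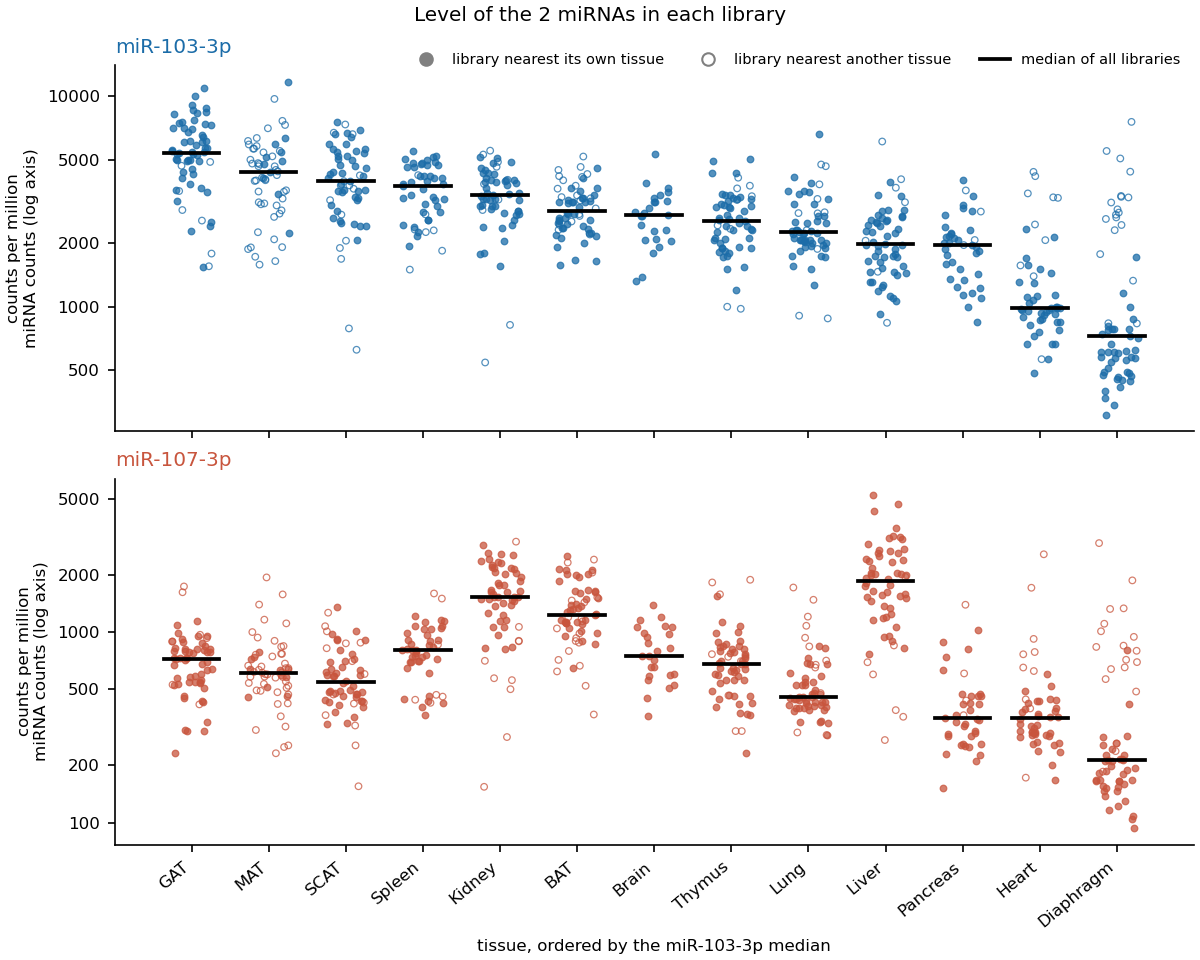
Level of miR-103-3p (upper panel) and miR-107-3p (lower panel) in each of the 686 libraries, in counts per 1000000 miRNA counts on a log axis, by tissue in the order of the miR-103-3p medians. Filled points are libraries nearest to their own tissue, open points those nearest to another, and black bars are medians of all libraries: GAT is highest for miR-103-3p (5381) and liver for miR-107-3p (1858).

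Neighbours in these orders were mostly not separable. In a paired permutation test across mice (two-sided, on log2(CPM + 1)), 5 of 24 steps between neighbouring tissues passed an adjusted p of 0.05. For miR-103-3p these were GAT over MAT, by 0.35 ± 0.87 on the log2 scale (SD, 57 mice, higher in 38, adjusted p = 0.0258), and pancreas over heart, by 0.76 ± 1.10 (22 mice, higher in 17, adjusted p = 0.0258). For miR-107-3p they were BAT over spleen (0.68 ± 0.70, higher in 31 of 38 mice, permutation adjusted p = 2.40e-04), lung over heart (0.52 ± 0.84, 27 of 38, 0.00588) and pancreas over diaphragm (0.60 ± 1.33, 28 of 38, 0.0436). The other 19 steps did not pass in all libraries. GAT over MAT was not called without the mismatched pools (0.30, permutation adjusted p = 0.0994) or libraries (0.22, 9 mice, exact permutation adjusted p = 0.516), and it was 0.01 in LAR alone and 0.67 in TERM alone. Pancreas over diaphragm was 0.98 ± 0.95 without the mismatched libraries (higher in 23 of 25 mice, permutation adjusted p = 2.40e-04). Without the mismatched libraries 3 further steps passed: for miR-103-3p heart over diaphragm (0.75 ± 0.66, higher in 22 of 24 mice, permutation adjusted p = 2.40e-04) and kidney over BAT (0.31 ± 0.48, 22 of 29, 0.00648), and for miR-107-3p SCAT over lung (0.33 ± 0.55, 26 of 33, 0.00648). Without the mismatched pools, heart over diaphragm (0.64 ± 0.81, 21 of 24, permutation adjusted p = 0.00456) and lung over liver (0.33 ± 0.73, 23 of 32, 0.0498) passed for miR-103-3p.

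The order of miR-103-3p also depended on what a count was divided by. Divided by the sum of 7 RNA classes (rpmm: miRNA with lncRNA, piRNA, rRNA, tRNA, snoRNA and snRNA, as counts per 1000000), its medians were highest in lung (330 rpmm) and kidney (326), and GAT (134), SCAT (133) and MAT (111) stood near the end, above diaphragm (63.6) and pancreas (39.0). For miR-107-3p, liver (170 rpmm), kidney (160) and BAT (92.1) led on this scale too, but its order further down also changed. SCAT minus lung was 0.14 on the CPM scale and -1.65 on the rpmm scale (permutation adjusted p = 0.409 and 4.00e-05). On the rpmm scale 14 of the 24 steps passed, and 2 of them passed on both scales with opposite signs. These were pancreas against heart for miR-103-3p, at -2.50 ± 1.39 on the rpmm scale (higher in 1 of 22 mice, permutation adjusted p = 5.33e-05). For miR-107-3p it was pancreas against diaphragm, at -1.22 ± 1.61 (higher in 7 of 38 mice, permutation adjusted p = 2.00e-04).

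Liver and the adipose tissues, where the pair is linked to insulin action, were compared directly in the same mice, and 17 of 20 comparisons passed. miR-107-3p separated liver from white fat on both scales: on the CPM scale it was lower than in liver by 1.31 ± 1.10 in GAT (log2, SD, 58 mice, lower in 53), by 1.44 ± 1.16 in MAT (55 mice) and by 1.51 ± 1.08 in SCAT (56 mice), each with a permutation adjusted p of 1.67e-05, and on the rpmm scale by 2.99, 2.87 and 2.81. BAT held more miR-107-3p than each white fat, by 0.90 ± 0.74 over GAT (higher in 56 of 60 mice), 1.01 ± 0.81 over MAT (50 of 57) and 1.12 ± 0.85 over SCAT (53 of 58), again on both scales. Between BAT and liver, miR-107-3p was lower in BAT by 0.41 ± 1.15 (higher in 20 of 58 mice, permutation adjusted p = 0.011). That difference was -0.18 ± 1.04 in LAR alone (permutation adjusted p = 0.385) and -0.63 ± 1.23 in TERM alone (0.0123).

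For miR-103-3p, the direction between fat and liver turned with the scale. On the CPM scale it was higher than in liver by 1.36 ± 0.89 in GAT (higher in 54 of 58 mice), 1.00 ± 0.89 in MAT (46 of 55) and 0.96 ± 0.82 in SCAT (47 of 56), whereas on the rpmm scale it was lower than in liver by 0.42, 0.51 and 0.40, with permutation adjusted p-values of 0.0206, 0.00343 and 0.00253. BAT was below each white fat on the CPM scale, by 0.38 to 0.81, and above each on the rpmm scale, by 0.68 to 0.75. On the CPM scale BAT against MAT depended on the libraries held: it was -0.48 in all, -0.75 ± 0.68 in LAR alone (permutation adjusted p = 2.00e-05), -0.22 ± 0.60 in TERM alone (0.0779) and -0.85 ± 0.81 without the mismatched libraries (7 mice, exact permutation adjusted p = 0.0781). GAT against MAT was likewise 0.22 ± 0.69 without them (9 mice, exact permutation adjusted p = 0.382). In all, 6 of the 10 comparisons of miR-103-3p passed on both scales with opposite signs, against 0 of 10 for miR-107-3p, of which 7 passed on both scales in the same direction. The share of all counts that fell on miRNAs moved with this: group medians were 5.81 to 13.7% in liver and 4.42 to 11.6% in BAT, and 1.61 to 5.32% in the white fats. In such bulk tissue, fewer cells of a type and less of a miRNA per cell cannot be told apart.

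The balance within the pair needs no such denominator. As a share of the sum of both, miR-107-3p made up a median of 48.7% in liver (10.2 to 60.0%, n = 58), 33.1% in kidney (9.78 to 40.1%, n = 57) and 32.6% in BAT (9.17 to 52.1%, n = 60). It made up 12.6% in MAT, 12.2% in SCAT and 10.6% in GAT (5.55 to 49.2%, n = 60), so that 1 count of miR-107-3p stood against 1.05 of miR-103-3p in liver and 8.46 in GAT. The log2 ratio of miR-107-3p to miR-103-3p was higher in liver than in each of the other 12 tissues, a comparison made after the levels were seen. The difference was smallest against BAT (0.94 ± 1.00, SD, higher in 50 of 58 mice) and kidney (0.96 ± 0.98, 50 of 56), and largest against GAT (2.67 ± 1.10, 56 of 58) and SCAT (2.47 ± 0.96, 53 of 56), each with a permutation adjusted p of 1e-05, the smallest that 100000 resamples can give.

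The few mice in which liver did not lead were those with libraries nearest to another tissue. Without these libraries, liver led in 45 of 45 mice over GAT (3.13 ± 0.47), in 36 of 36 over BAT (0.97 ± 0.51), in 40 of 40 over kidney (0.98 ± 0.35) and in 10 of 10 over MAT (3.14 ± 0.51). The spread of the share in liver also narrowed, from 46.1 ± 11.1% (mean ± SD, n = 58) to 49.8 ± 4.64% (n = 51), and in GAT from 12.5 ± 6.41% to 10.8 ± 2.96% (n = 53).

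**Figure D2:**
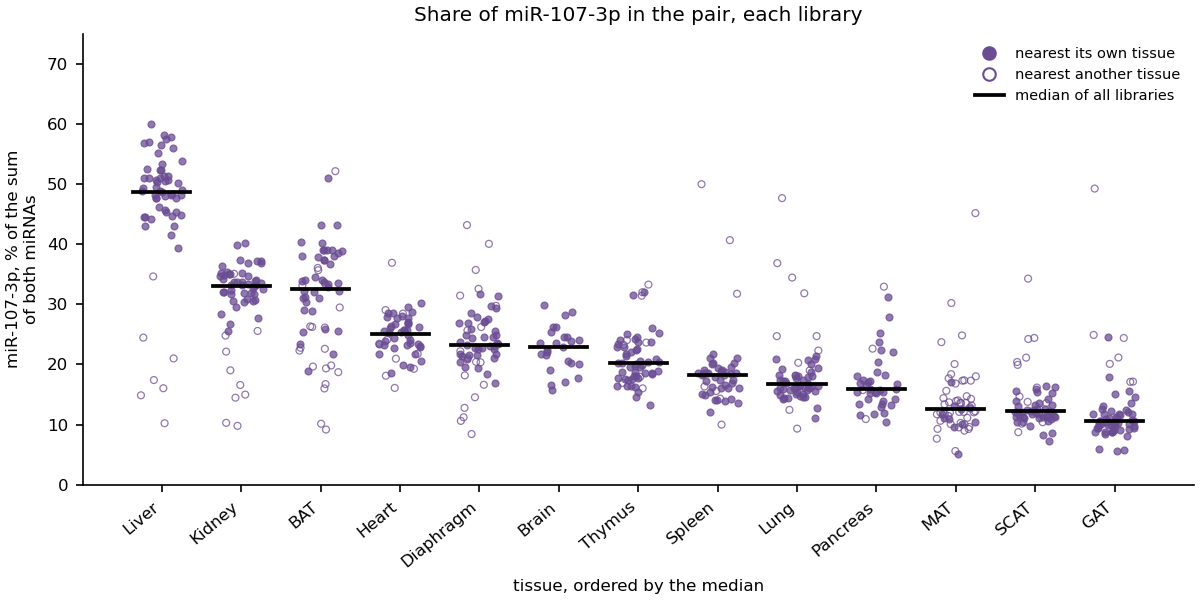
miR-107-3p as a percentage of the summed counts of miR-103-3p and miR-107-3p in each library, by tissue in the order of the medians (black bars). Filled points are libraries nearest to their own tissue and open points those nearest to another; the median falls from 48.7% in liver to 10.6% in GAT, and all liver libraries under 39.4% are open.

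Within a tissue, the members rose and fell together from library to library. Over the libraries nearest to their own tissue, Pearson's r of their log2 levels was 0.92 in liver (n = 51), 0.90 in kidney, 0.83 in SCAT, 0.71 in GAT and 0.42 in BAT (n = 40), and over all libraries 0.50 in liver and 0.04 in BAT. These correlations are descriptive, since the points share a library and its total.

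Across the 13 tissue means r of the pair was 0.47, and 445 miRNAs with a mean of at least 10 CPM were ranked by likeness to each, by Pearson's r over the tissue means of log2(CPM + 1). The miRNAs most like miR-103-3p were miR-339-5p (r = 0.76), miR-708-3p (0.73), miR-361-5p (0.73), miR-501-5p (0.73) and miR-195a-5p (0.71), and miR-107-3p ranked 57. Those most like miR-107-3p were miR-340-3p (0.67), miR-194-5p (0.66), miR-192-5p (0.63), let-7f-5p (0.62) and miR-148b-5p (0.61), and miR-103-3p ranked 23. miR-192-5p and miR-194-5p are abundant in liver and kidney, the tissues where miR-107-3p was also highest. miR-195a-5p belongs to the miR-15/107 group, which shares the bases AGCAGC near the 5′ end.

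The partner strands were close to the detection limit. Over all 686 libraries they summed to 572 counts for miR-103-1-5p, 1336 for miR-103-2-5p and 6762 for miR-107-5p, against 8024296 for miR-103-3p and 2542888 for miR-107-3p. miR-103-1-5p was above 0 in 307 libraries, miR-103-2-5p in 468 and miR-107-5p in 562. miR-107-5p was highest in liver (5.20 counts per 1000000 over the pooled libraries), kidney (4.75) and BAT (4.45), the 3 tissues with the most miR-107-3p, and 0.918 to 1.39 in the white fats. Reads of miR-103-2-5p outnumbered those of miR-103-1-5p in all 13 tissues.

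Whether spaceflight changed the pair was tested as FL vs. HGC in each tissue, which holds housing alike. In liver of LAR, miR-103-3p was 1181, 2015 and 6098 CPM in FL (lowest, median, highest, n = 10), 1463, 2025 and 4035 in HGC (n = 9) and 1067, 1742 and 3677 in VGC (n = 10). miR-107-3p was 359, 1863 and 3207 CPM in FL, 850, 1983 and 3078 in HGC and 389, 1706 and 3148 in VGC. All 3 arms overlapped for both. The edgeR log2 fold change of FL over HGC was -0.21 ± 0.23 (SE; 95% interval -0.67 to 0.24, adjusted p = 0.683) for miR-103-3p and -0.30 ± 0.42 (-1.16 to 0.56, adjusted p = 0.796) for miR-107-3p. Without the mismatched libraries the latter was -0.11 ± 0.22 (edgeR adjusted p = 0.913). In liver of TERM the medians of miR-103-3p were 2052 (FL), 1856 (HGC) and 2716 CPM (VGC) and those of miR-107-3p 1785, 1961 and 1738 CPM, with FL over HGC at 0.09 ± 0.21 (-0.33 to 0.52) and -0.02 ± 0.33 (-0.69 to 0.65).

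In GAT of LAR, miR-103-3p was 2416, 5578 and 7740 CPM in FL, 3545, 5183 and 8571 in HGC and 1787, 3271 and 7581 in VGC (n = 10 each), and the arms overlapped. FL over HGC was 0.31 ± 0.28 (-0.26 to 0.88, edgeR adjusted p = 0.665), and FL over VGC was 0.62 ± 0.28 (0.05 to 1.19, unadjusted p = 0.0339, adjusted p = 0.309), or 0.41 ± 0.28 without the mismatched pools. miR-107-3p was 302, 716 and 1617 CPM in FL, 452, 788 and 921 in HGC and 303, 669 and 1734 in VGC, with FL over HGC at 0.27 ± 0.37 (-0.49 to 1.02). The scale changed the values in GAT: per 1000000 counts of all classes, miR-103-3p was 53.5, 299 and 531 rpmm in FL and 38.2, 112 and 247 in HGC. This was a difference of 1.46 in mean log2(rpmm + 1), with 9 of 10 FL libraries above the HGC mean (permutation p = 0.00442, adjusted over 52 tests p = 0.115). A Wilcoxon test across all miRNAs on these values called it (adjusted p = 0.0427). The study also used a rank test on values it names rpmm, but per reads mapped, and the sum of 7 classes used here may differ from that total. Its counts of deregulated miRNAs rest on thresholds of fold change and effect size rather than on that test, and those thresholds were not applied here. On the CPM scale the same libraries differed by 0.02 (permutation p = 0.916), and the share of counts on miRNAs had a median of 5.32% in FL and 1.83% in HGC.

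In MAT of LAR, where 24 of 28 libraries were nearest to another tissue, miR-107-3p was 249, 576 and 1393 CPM in FL (n = 9), 583, 803 and 1934 in HGC (n = 10) and 254, 617 and 739 in VGC (n = 9). The lowest HGC library lay above the FL median, and the 3 arms overlapped. HGC over VGC was 0.91 ± 0.30 (0.31 to 1.51, unadjusted p = 0.00424, edgeR adjusted p = 0.24) and FL over HGC -0.58 ± 0.29 (-1.18 to 0.02, adjusted p = 0.748). Without the mismatched pools these were 0.46 ± 0.27 and -0.36 ± 0.30 (edgeR adjusted p = 0.736 and 0.916), and without the mismatched libraries -0.04 ± 1.10 and 0.03 ± 1.10. The latter rest on 1 FL, 2 HGC and 1 VGC library, where only HGC has more than 1 library to show a spread, and bear on neither difference. The 3 pancreas miRNAs on the marker list summed to medians of 34707, 18454 and 59873 CPM in FL, HGC and VGC there, and their part in the difference was not tested. For miR-103-3p in MAT of LAR the medians were 4648, 5410 and 4995 CPM. BAT and SCAT gave FL over HGC values between -0.21 and 0.29 for both miRNAs in LAR and TERM, and SCAT of TERM had the widest medians of miR-103-3p, 5187 CPM in FL and 2565 in HGC, at 0.26 ± 0.25 (-0.25 to 0.76) in edgeR. Without the mismatched libraries, SCAT of LAR turned from 0.13 to -0.23 ± 0.27 for miR-103-3p and from 0.29 to -0.10 ± 0.27 for miR-107-3p, and miR-107-3p in BAT of TERM from -0.21 to 0.11 ± 0.28, none of them called.

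**Figure D3:**
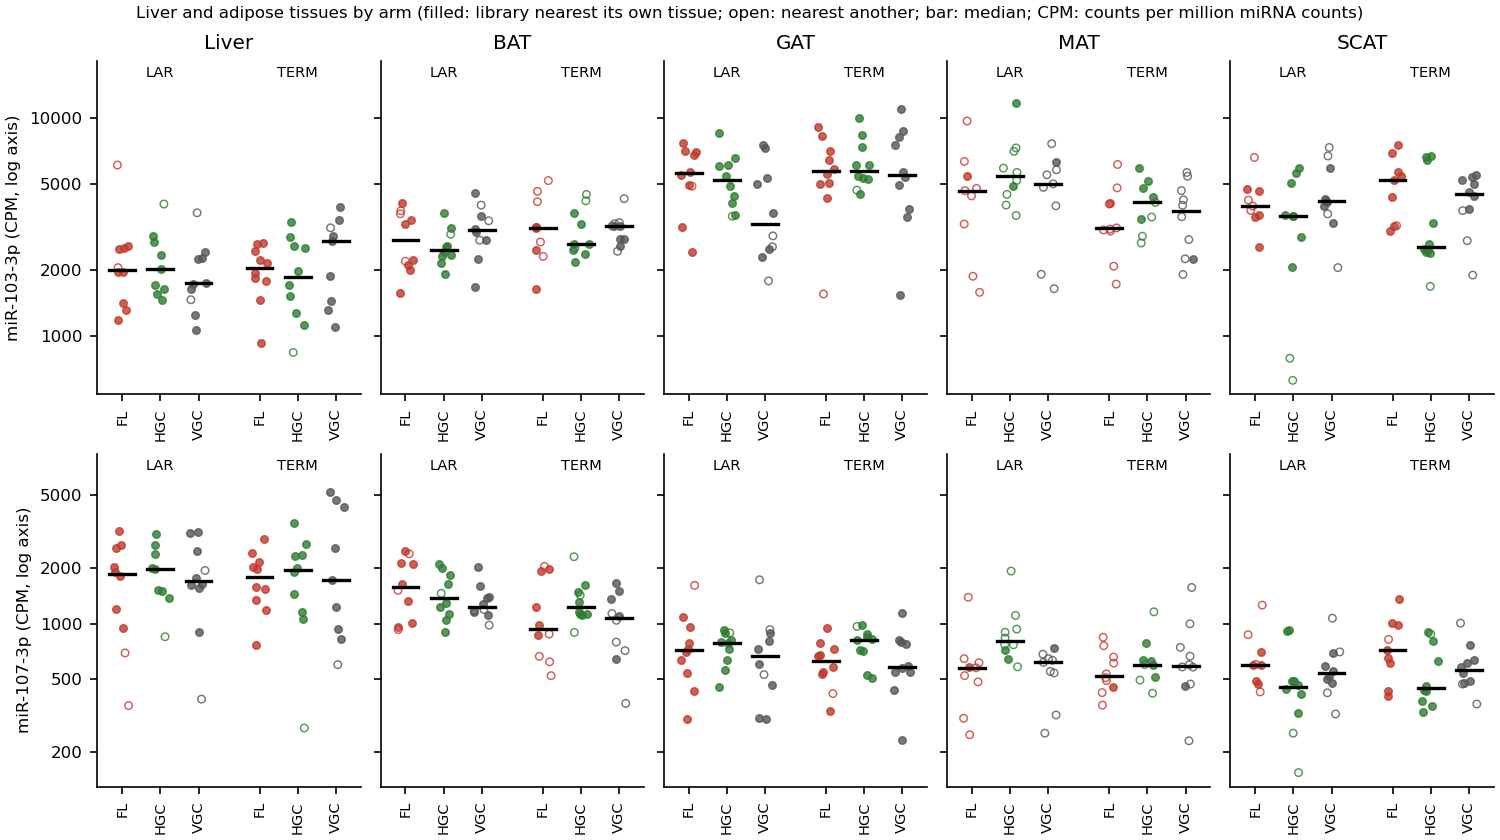
Level of miR-103-3p (upper row) and miR-107-3p (lower row) in liver and the 4 adipose tissues, in counts per 1000000 miRNA counts on a log axis, by arm within LAR and TERM. Each point is 1 library, filled where it was nearest to its own tissue and open where it was nearest to another, and bars are medians; the arms overlap in every panel.

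Across all 13 tissues edgeR called 0 of 26 tests of the pair in FL vs. HGC of LAR and 0 of 26 in TERM, against 1.06% and 0.305% of all tests of miRNAs in these comparisons. At an unadjusted p under 0.05 there was 1 test in each, and DESeq2 also called 0 and 0 (all miRNAs 1.13% and 0.502%). The Wilcoxon test on rpmm called 1 in LAR, the GAT value above, and 0 in TERM (0.656% and 0% of all tests). The unadjusted tests were miR-103-3p in heart of LAR and in lung of TERM. In heart of LAR, FL held 484, 662 and 1288 CPM and HGC 846, 997 and 2146 (n = 6 each), a fold change of -0.82 ± 0.35 (-1.54 to -0.09, edgeR adjusted p = 0.377). In lung of TERM, FL held 2066, 3295 and 6600 CPM (n = 10) and HGC 878, 2262 and 4741 (n = 9), at 0.53 ± 0.26 (0.01 to 1.05, adjusted p = 0.266). There 1 of 10 FL and 4 of 9 HGC libraries were nearest to another tissue, and without such libraries the difference was 0.31 ± 0.24 (edgeR adjusted p = 0.754).

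These results bound the change rather than show its absence. The fold changes of FL over HGC ranged from -0.82 in heart (miR-103-3p) to 0.67 in pancreas (miR-107-3p) in LAR, and from -0.36 in GAT to 0.84 in diaphragm (both miR-107-3p) in TERM. Of the 26 intervals, 16 in LAR and 19 in TERM lay within a 2-fold change either way, and 5 and 4 within 1.5-fold. The widest bounds were -1.54 in LAR (heart) and 1.94 in TERM (diaphragm). In pancreas of LAR 3 of 10 FL and 0 of 8 HGC libraries were nearest to another tissue, and the median of all miRNAs was 0.37. In diaphragm of TERM such libraries were 3 of 10 FL and 5 of 10 HGC, and in heart of LAR 1 of 6 in each arm. The bounds rest on TMM factors: on the rpmm scale miR-103-3p in GAT of LAR differed by 1.46.

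**Figure D4:**
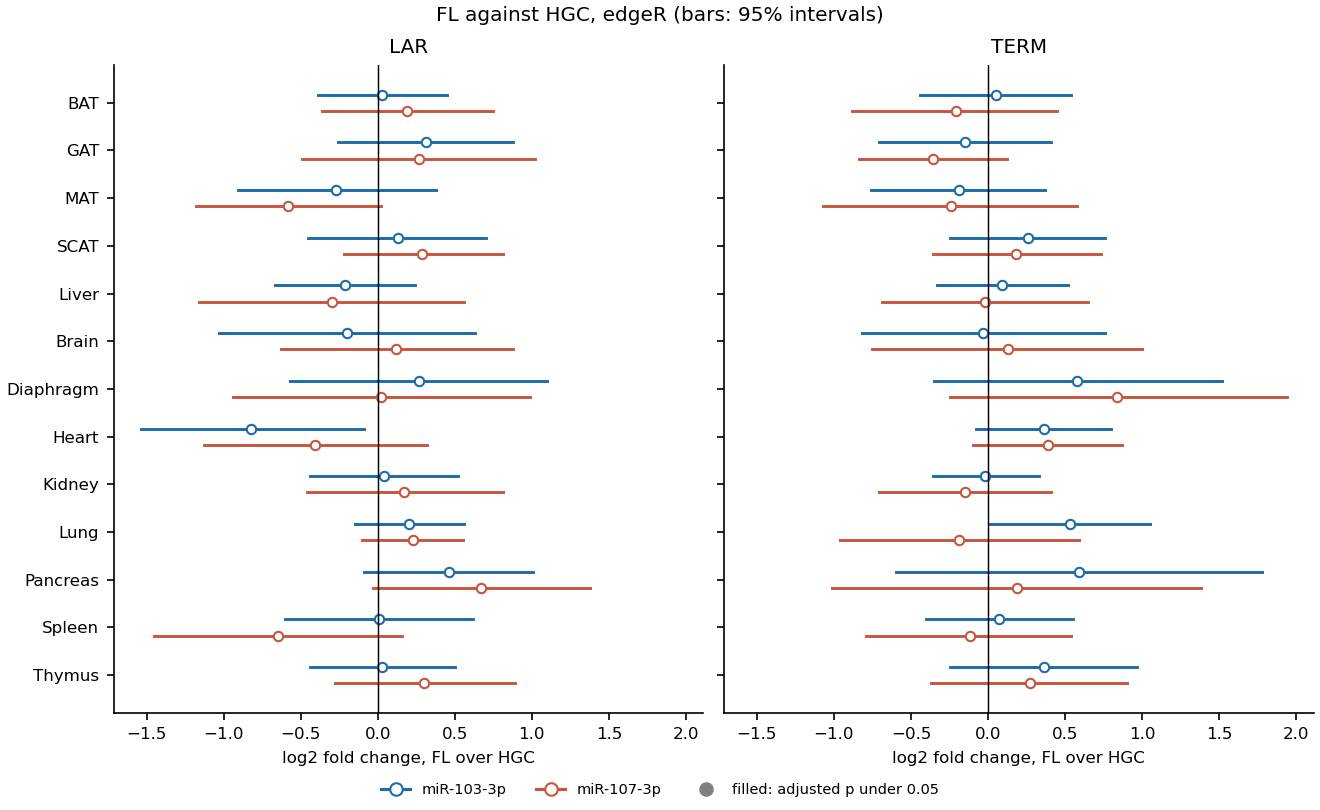
edgeR log2 fold change of FL over HGC (horizontal axis) for miR-103-3p (blue) and miR-107-3p (red) in 13 tissues, in LAR (left) and TERM (right). Bars are 95% intervals and filled points would mark an adjusted p under 0.05; none is filled, and 25 of 26 intervals in each panel hold 0.

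The remaining comparisons between arms gave the same count. FL vs. VGC had 0 of 26 calls in LAR and 0 of 26 in TERM by edgeR (all miRNAs 0.508% and 0.508%), with 1 and 0 tests at an unadjusted p under 0.05. HGC vs. VGC, which compares housing on the ground, had 0 and 0 (0.124% and 0.197%), with 1 and 0 at an unadjusted p under 0.05. DESeq2 called 0 in each of these 4 comparisons, where its share over all miRNAs was not summed, so that these counts have no background beside them. The ratio of miR-107-3p to miR-103-3p passed 0 of 26 permutation tests of FL vs. HGC (smallest adjusted p = 0.863, 0 with an unadjusted p under 0.05). In liver the mean log2 ratio was -0.53 ± 1.24 in FL and -0.24 ± 0.77 in HGC of LAR, and -0.20 ± 0.17 and -0.20 ± 0.55 in TERM.

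Age was compared as 8 vs. 3 months in the 12 tissues of LAR and 11 of TERM that had both ages in each arm. edgeR called 0 of 24 tests in LAR and 0 of 22 in TERM (all miRNAs 0.205% and 1.17%), with 0 and 1 at an unadjusted p under 0.05. All 24 intervals in LAR lay within a 2-fold change. In liver, 8 over 3 months was 0.10 ± 0.20 for miR-103-3p and 0.24 ± 0.35 for miR-107-3p in LAR, and -0.08 ± 0.18 and -0.20 ± 0.27 in TERM. The unadjusted test was miR-107-3p in MAT of TERM, at -0.75 ± 0.31 (-1.38 to -0.11, adjusted p = 0.132). It was -0.06 ± 0.34 without the mismatched pools (edgeR adjusted p = 1) and -0.21 ± 0.29 without replicate 5 of each group (0.779).

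The interaction of age and flight, which asks whether FL vs. HGC differs between 8 and 3 months, was called in 0 of 24 tests in LAR and 0 of 22 in TERM by edgeR (all miRNAs 0.102% and 0.862%), with 2 and 0 at an unadjusted p under 0.05. Both were in diaphragm of LAR and stood just outside the threshold, at -2.70 ± 0.64 for miR-103-3p and -3.42 ± 0.76 for miR-107-3p (adjusted p = 0.0527 for each). In FL, miR-103-3p was 725, 2444 and 5064 CPM at 3 months and 367, 462 and 572 CPM at 8 months (lowest, median, highest, n = 5 each), which did not overlap, and in HGC it was 414, 711 and 1776 CPM at 3 months and 511, 779 and 2901 at 8 months. miR-107-3p had the same order, with medians of 487 and 130 CPM in FL and 188 and 215 CPM in HGC.

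Libraries nearest to another tissue were spread unevenly over these groups. They were 3 of 5 in FL at 3 months, 0 of 5 in FL at 8 months, and 1 and 2 of 5 in HGC at these ages, and the 3 muscle miRNAs on the marker list summed to 688, 108843 and 408461 CPM in FL at 3 months against 360462, 396634 and 462709 at 8 months. In the libraries nearest to diaphragm, miR-103-3p was 725 to 776 CPM in FL at 3 months, 367 to 572 in FL at 8 months, 414 to 784 in HGC at 3 months and 511 to 779 in HGC at 8 months. Without the others the interaction was -1.01 ± 0.60 for miR-103-3p and -0.84 ± 0.64 for miR-107-3p (edgeR adjusted p = 0.712 and 0.816).

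LAR was compared with TERM over the 3 arms together, and edgeR called 2 of 26 tests of the pair, against 4.83% of all tests of miRNAs, with 5 at an unadjusted p under 0.05. miR-107-3p was lower in LAR than in TERM in lung, with 297, 427 and 933 CPM in LAR (n = 30) and 288, 583 and 1712 in TERM (n = 28), at -0.73 ± 0.17 (-1.08 to -0.38, adjusted p = 0.0116). miR-103-3p was higher in LAR in MAT, with 1583, 4950 and 11718 CPM in LAR (n = 28) and 1726, 3526 and 6136 in TERM (n = 29), at 0.48 ± 0.15 (0.17 to 0.79, adjusted p = 0.0153). In both cases the groups overlapped.

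Neither call held in every alternative. In lung, 4 of 30 LAR and 8 of 28 TERM libraries were nearest to another tissue, and without these miR-107-3p differed by -0.24 ± 0.10 (adjusted p = 0.234). With the total of 7 RNA classes as the library size it differed by -0.03 ± 0.22 (edgeR adjusted p = 1), and miR-103-3p in lung turned from -0.40 to 0.25. In MAT, 24 of 28 LAR and 22 of 29 TERM libraries were, the 3 pancreas miRNAs summed to medians of 44279 CPM in LAR and 522 in TERM, and without these libraries the difference was larger but not called, at 0.95 ± 0.44 (edgeR adjusted p = 0.503). That fit left 11 libraries, 1 FL, 2 HGC and 1 VGC in LAR and 1, 5 and 1 in TERM, so that 4 of the 6 groups held a lone library, assumed to vary like the HGC libraries. Without the mismatched pools alone, the difference in MAT was 0.66 ± 0.19 (edgeR adjusted p = 0.00484). With RLE size factors in place of TMM the differences were -0.82 ± 0.19 in lung (edgeR adjusted p = 0.00792) and 0.43 ± 0.16 in MAT (0.0339). At that setting miR-103-3p in lung was called as well, at -0.45 ± 0.13 (edgeR adjusted p = 0.0344, against 0.0601 with TMM). With library plate in the model the differences were -0.58 ± 0.21 in lung for miR-107-3p (adjusted p = 0.33) and 0.37 ± 0.18 in MAT for miR-103-3p (0.119). In liver the difference between LAR and TERM was -0.01 ± 0.13 (-0.27 to 0.25) for miR-103-3p and -0.02 ± 0.23 (-0.48 to 0.45) for miR-107-3p. With the total of 7 RNA classes as the library size these values were 0.69 and 0.70 (edgeR adjusted p = 0.00116 and 0.0158), where the median of all liver miRNAs was 0.66. In BAT and GAT, miR-107-3p was at 0.49 ± 0.16 and 0.47 ± 0.18 (unadjusted p = 0.00389 and 0.0113, edgeR adjusted p = 0.212 and 0.13), and at 0.21 ± 0.15 and 0.17 ± 0.14 without the mismatched libraries (adjusted p = 0.612 and 0.555).

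The flight effect itself was then compared between LAR and TERM, and 0 of 26 tests were called (all miRNAs 0.744%), with 1 at an unadjusted p under 0.05. That was miR-103-3p in heart, where FL over HGC was -0.82 in LAR and the difference from TERM was -1.19 ± 0.40 (edgeR adjusted p = 0.138). Over all 12 comparisons, 13 of 300 tests of the pair (4.33%) had an unadjusted p under 0.05, and 10.9% of all tests of miRNAs did.

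**Figure D5:**
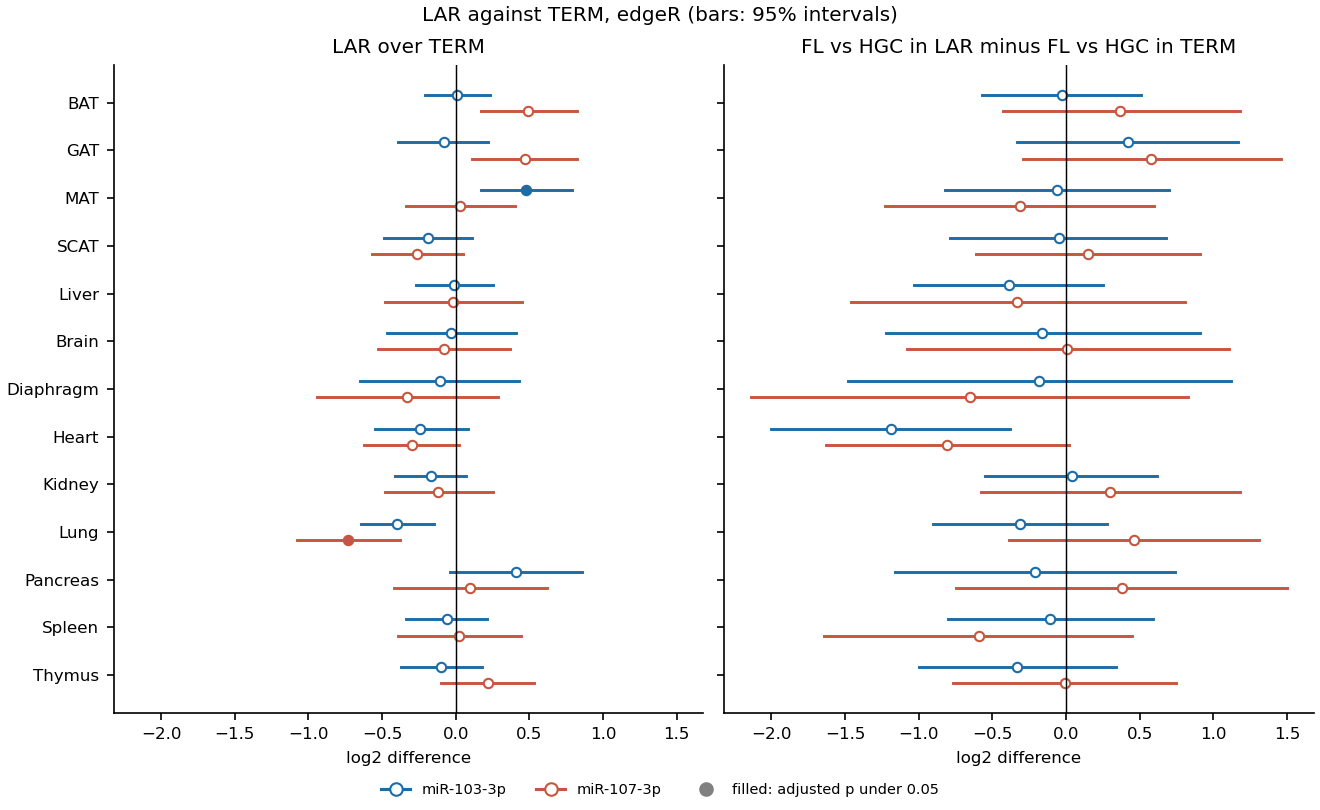
edgeR log2 difference between LAR and TERM over all arms (left) and between the flight effects, FL over HGC, of LAR and TERM (right), for miR-103-3p (blue) and miR-107-3p (red) in 13 tissues. Bars are 95% intervals and filled points an adjusted p under 0.05; the 2 filled points are miR-107-3p in lung (-0.73) and miR-103-3p in MAT (0.48).

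The pair belongs to the miR-15/107 group, whose members overlap in targets through a shared core at the 5′ end. Of the 9 other miRNAs listed, 8 hold AGCAGC within their first 7 bases, as do 13 of all 1679 mature miRNAs (0.774%). The exception is miR-497b, which lacks this core and was kept in the list. In the 8 the core lies at bases 2 to 7 and not 1 to 6, so that their seeds differ from that of the pair. In liver and the 4 adipose tissues, edgeR called 0 of 40 tests of this list in FL vs. HGC of LAR and 0 of 45 in TERM, where it called 2.43% and 0.0615% of all miRNA tests in these tissues. The list's median log2 fold change was 0.05 and 0.20, and that of all miRNAs 0.00 and 0.00. In FL vs. VGC of LAR, miR-322-5p (1.51 ± 0.34, adjusted p = 0.0256) and miR-503-5p (2.26 ± 0.55, adjusted p = 0.0304), which are made from 1 precursor cluster, rose in GAT (2 of 40 tests, all miRNAs 0.906%). There 1 of 10 FL and 3 of 10 VGC libraries were nearest to another tissue, and the muscle miRNAs on the marker list summed to medians of 4896 CPM in FL and 9692 in VGC and the lymphoid ones to 8824 and 13286. Their part in these calls was not tested. In LAR vs. TERM the list had 4 calls of 45 (all miRNAs 6.82%): in MAT, miR-15b-5p and miR-16-5p fell and miR-15a-5p rose, and in SCAT miR-322-5p fell. The libraries nearest to another tissue and the pancreas miRNAs given above for MAT (medians of 44279 CPM in LAR and 522 in TERM) moved with the MAT calls, and in SCAT 10 of 29 LAR and 5 of 29 TERM libraries were nearest to another tissue. Their part in these calls was not tested.

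Among 26 miRNAs linked to insulin secretion or action, edgeR called 3 of 130 tests in FL vs. HGC of LAR (2.31%, all miRNAs 2.43%), all higher in FL, and 0 of 130 in TERM. They were miR-375-3p, the islet miRNA that limits insulin release, in liver (7.77 ± 1.7, adjusted p = 0.0162), and miR-122-5p, the main liver miRNA (6.07 ± 1.6, 0.0331), and miR-33-5p, a brake on cholesterol export (1.41 ± 0.39, 0.0337), in BAT. Libraries nearest to another tissue were 2 of 10 FL and 1 of 9 HGC in liver, and 3 of 10 FL and 1 of 10 HGC in BAT. That of FL mouse 2 in liver was nearest to pancreas, where miR-375-3p had a median of 70853 CPM against 32.3 in liver. The part of these libraries in the calls was not tested. FL vs. VGC had 2 calls of 130 in LAR (1.54%, all miRNAs 0.906%), miR-375-3p in liver (5.18 ± 1.5) and miR-802-5p in GAT (-6.31 ± 1.6), and 1 of 130 in TERM (0.769%, 0.922%), miR-375-3p in GAT (2.85 ± 0.67). In GAT of LAR 1 of 10 FL and 3 of 10 VGC libraries were nearest to another tissue, 1 of the latter to liver. In liver of LAR such libraries were 2 of 10 FL, that of mouse 2 among them, and 2 of 10 VGC. Their part was not tested. Of the age comparisons, 8 vs. 3 months in TERM had 9 calls of 130, 2 higher and 7 lower (6.92%, all miRNAs 1.98%), and the interaction in TERM 5 (3.85%, 1.38%). The smallest adjusted p-values were those of miR-143-3p, miR-802-5p, miR-122-5p and miR-27b-3p in MAT for age, these 4 lower at 8 months, and of miR-802-5p, miR-375-3p and miR-122-5p in BAT and miR-375-3p in GAT for the interaction. The 2 higher at 8 months were miR-802-5p (4.21 ± 0.89) and miR-375-3p (2.88 ± 0.66) in SCAT. In TERM, 22 of 29 MAT and 5 of 29 SCAT libraries were nearest to another tissue, and so were 5 of 10 FL and 3 of 10 HGC libraries in BAT and 1 of 10 in each of these arms in GAT, and their part in the calls of age and interaction was not tested. LAR vs. TERM had 15 (11.5%, all miRNAs 6.82%), 12 of them higher in LAR, led by miR-375-3p, miR-29c-3p, miR-802-5p and miR-27b-3p in MAT. miR-375-3p is itself 1 of the 3 pancreas miRNAs on the marker list, and the part of the mismatched MAT libraries in these calls (24 of 28 in LAR and 22 of 29 in TERM) was not tested. The flight effect differed between LAR and TERM in 1 of 130 tests, miR-375-3p in liver (8.26 ± 1.6, all miRNAs 0.643%). That test holds the same FL liver library nearest to pancreas, and its part was not tested. By edgeR with TMM factors, the pair itself was called once in liver or fat, as miR-103-3p in MAT in LAR vs. TERM. The Wilcoxon test on rpmm called miR-103-3p in GAT in FL vs. HGC of LAR, as given above.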

How the data were processed

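Small RNA of 686 libraries from 13 tissues was sequenced. The authors mapped reads to GRCm39 and miRBase with miRMaster, and deposited estimated counts for miRNAs (0.790% carry a fraction) and whole counts for 6 other RNA classes, without normalization. How short reads were assigned between miR-103-3p and miR-107-3p is not given in the sources used here. The 7 classes summed to 9.15 to 428 M counts per library (median 54.5 M). The smallest counts of the pair, 454 for miR-103-3p and 76 for miR-107-3p, have the largest counting error. Library pools and plates come from the study's supplement.

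CPM is the count per 1000000 miRNA counts and rpmm that per 1000000 counts of 7 classes, and 1 was added before log2. For edgeR 4.0.16 (limma 3.58.1, R 4.3.3), estimated counts were rounded, miRNAs with at least 5 counts in at least 10% of the libraries of any group were kept (1353 in LAR, 1347 in TERM, both members among them), and 1 quasi-likelihood model per tissue with TMM factors was fitted across all miRNAs. LAR and TERM were fitted apart, with arm, or with arm and age, as groups, and together with arm and return as groups over 1427 miRNAs. p-values were adjusted over all miRNAs of a tissue after Benjamini and Hochberg, and a call is an adjusted p under 0.05. Standard errors and 95% intervals come from the same fit. Single values were compared by two-sided permutation tests, exact where a group held fewer than 10 and otherwise with 100000 resamples, in SciPy 1.17.1 (Python 3.11.15, numpy 2.4.6, pandas 2.3.3), and adjusted over the tests of a family. These and the edgeR step were tested on simulated data. DESeq2 1.42.0, a Wilcoxon test, other library sizes, filters, and terms for age, plate or replicate were alternatives.

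Each library was assigned to the tissue of highest correlation over 728 tissue-enriched miRNAs. The nearest miRNAs, and list members past the threshold in liver or fat (at most 4 a comparison, by adjusted p), were named by rule. The members and lists were chosen with earlier results of these data known. Mice of different arms share numbers but are different animals. The circRNA and scaRNA tables were not used here. Sequences and hairpin positions are on GRCm38.p6 and host exons from GENCODE M21, not the build of the counts.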

Additional observations from a re-analysis of the deposited data

Results flagged for a closer look

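In liver and fat, 10 of 60 groups of 1 miRNA, tissue, arm and return held a library apart from the others by Dixon's criterion, in each case at the high end. Chance gives about 1 group in 20, and both miRNAs were tested in the same libraries. In 9 of the 10 the library was nearest to another tissue than its label. No explanation was tested.

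For miR-103-3p, FL mouse 2 of LAR stood at 6098 CPM in liver, above the next library at 2592, and was nearest to pancreas. VGC mouse 14 of LAR stood at 3677 CPM in liver (next 2426, nearest to kidney) and VGC mouse 13 of TERM at 4271 CPM in BAT (next 3317, nearest to spleen). HGC mouse 1 of LAR stood at 11718 CPM in MAT (next 7310), and it alone of the 10 was nearest to its labelled tissue.

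For miR-107-3p, HGC mouse 16 of TERM stood at 2315 CPM in BAT (next 1631, nearest to kidney) and VGC mouse 4 of LAR at 1734 CPM in GAT (next 929, nearest to liver). In MAT, FL mouse 13 of LAR stood at 1393 CPM (next 646, nearest to pancreas), HGC mouse 13 of LAR at 1934 CPM (next 1110, nearest to kidney) and HGC mouse 5 of TERM at 1161 CPM (next 783, nearest to BAT). VGC mouse 12 of LAR stood at 1072 CPM in SCAT (next 703, nearest to spleen).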

How the results depend on the processing

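With the total of 7 RNA classes as the library size, calls of the pair rose from 0 to 1 for 8 vs. 3 months in TERM (miR-107-3p in SCAT, 1.27), from 0 to 3 for the interaction of age and flight in LAR (both members in diaphragm, and miR-107-3p in pancreas at 3.71, against 1.30 with TMM) and from 2 to 8 for LAR vs. TERM, where the median of all miRNAs of a tissue was -0.06 to 1.20, against -0.18 to 0.39 with TMM. These 8 hold MAT but not the lung call (miR-107-3p, -0.03). At this setting the median of all miRNAs was 0.78 in SCAT of TERM for age, and -0.63 in diaphragm and 1.89 in pancreas of LAR for the interaction. The share of all miRNAs called at this setting was not summed. The Wilcoxon test on rpmm called 1 test of FL vs. HGC in LAR. RLE size factors added miR-103-3p in lung (-0.45) to the calls of LAR vs. TERM. Without a filter on low counts the interaction in LAR had 2 calls, and leaving out the mice of 1 number in turn gave 0 to 2, the 2 without replicate 2 (diaphragm, -2.95 and -3.57). In the arm comparisons, leaving out a number was run only in tissues with few mice an arm, for 2 or 4 of the 26 tests, and says nothing of the others. LAR vs. TERM had 1 call without the mismatched pools, 0 of 26 without the mismatched libraries (MAT 0.95, adjusted p = 0.503, from 11 libraries, with 4 of 6 groups at 1 library assumed to vary like the HGC libraries) and 0 with plate in the model. Neighbouring tissues had 14 calls on the rpmm scale and 1 in LAR alone. The cause of these changes was not tested.

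The 20 values of FL over HGC in liver and fat gave 200 recomputed values, of which 1 was called and 27, from 12 of the 20, changed sign. With mouse number as a replicate block, all arm comparisons had 0 calls. Mice of the same number deviated together no more than others (median r -0.00 and 0.02), and in 0 of 26 fits was every pair over 0.1. Plate as a term for age and for LAR vs. TERM, and the test of the liver ratio, were chosen after seeing the data.

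Counts of the pair were 76 or more in every library. The spread between mice and the libraries nearest to another tissue limit the comparisons. Reads shorter than 22 bases cannot be assigned to a member, and the share of such reads was not analysed here.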
